A study of Mus musculus with 6 samples.

Results

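Replication-dependent histones are the proteins on which newly copied DNA is wound, and their genes lie in clusters on a few chromosomes. The 5 classes are the core histones H2A, H2B, H3 and H4, of which the nucleosome is built, and the linker histone H1, which binds the DNA between nucleosomes. Their messenger RNAs are made mainly in S phase, carry no introns and end in a short stem-loop that is bound by SLBP, instead of the poly(A) tail that other messenger RNAs carry. Replacement variants such as H3.3, H2A.Z and H1.0 are encoded outside the clusters by genes with polyadenylated messages and are made throughout the cell cycle. A few cluster genes also yield polyadenylated messages that read past the stem-loop, mostly in cells that have slowed or left the cycle.

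RNA was sequenced from MLE-12 cells, a mouse lung epithelial line from lung tumours of animals in which the surfactant protein C promoter drives the SV40 large T antigen, and both groups share this origin. The 3 libraries of the NR4A1 overexpression group came from cells transfected with pCMV-SPORT6-NR4A1, which encodes the orphan nuclear receptor NR4A1 (Nur77), and the 3 libraries of the vector control group from cells transfected with empty pCMV-SPORT6. Labels and methods do not say that libraries of a group came from separate cultures, so p-values measure the spread between these libraries, which may be technical. Histone cluster genes were taken as the table rows whose gene name begins with Hist1h, Hist2h, Hist3h or Hist4h. This gave 71 of 34745 rows under 70 names, since Hist2h2bb is listed under 2 identifiers whose spans overlap by 381 bases. Of these rows, 15 had at least 10 counts in at least 3 of the 6 libraries and are called the kept genes, 8 reached 10 counts in 1 or 2 libraries, 48 never did, and Hist1h2bl and Hist1h1t had no count in any library. All 15 kept genes were among the 12941 genes that passed edgeR's filter on low counts.

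Total counts ranged from 15019038 to 17574340 per library, and 3 counts, taken as the least a library can show, amount to between 0.171 and 0.1997 CPM (counts scaled to a common library total), which covers counting error only. Nr4a1 had 50660, 60093 and 68555 counts in the NR4A1 overexpression group and 428, 510 and 463 in the control group (log2 fold change 7.07 ± 0.14 SE, adjusted p = 2.13e-06, edgeR quasi-likelihood test), so each library matched its label. NR4A1 overexpression replicate 2 stood apart. It held the highest level of 6 of 6 smooth muscle markers (summed CPM 320.5 against 1.49 to 2.72 in the other libraries), 7 of 8 endothelial markers (109.1 against 8.21 to 9.13) and 6 of 8 fibroblast markers (1566 against 918.4 to 1043), and Cdh5, the endothelial cadherin, had 419 counts there and 0 in the other 5 libraries. Vector control replicate 1 held 284 counts of Col1a2, a collagen of fibroblasts, against 10 to 45 in the other libraries apart from NR4A1 overexpression replicate 2 with 4504. Of 16 epithelial and alveolar type 2 markers of the labelled cell type, 7 (Krt8, Krt19, Cdh1, Sftpb, Sftpc, Abca3 and Nkx2-1) had at least 189 counts in every library. Of the 9 others, Krt18, the usual partner of Krt8, had 2 to 21 counts in 5 libraries and 164 in NR4A1 overexpression replicate 2, Napsa had 15 to 36, and Epcam 2 to 22. Cldn7, Lamp3, Sftpd and Cldn4 had at most 11, 6, 2 and 1 counts, and Sftpa1 and Slc34a2 were at 0 throughout.

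Cluster histone RNA was scarce in these libraries. All 71 rows together received 420, 838 and 565 counts in the NR4A1 overexpression group and 488, 572 and 496 in the control group, which is 27.96, 49.5 and 32.6 against 28.3, 34.5 and 28.2 CPM before TMM factors. The 15 kept genes held 72.4% of these 3379 counts. Hist1h1c, Hist1h2bc and Hist3h2a alone held 36.1%.

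The library preparation may bear on these levels, but which one was used is not settled. The paper names a kit for total RNA, while the submitters' protocol names a step that isolates messenger RNA. RNAs that end without a poly(A) tail were close to 0. The 6 of 13 listed that are in the table had 3 to 18 counts together in a library, with Rmrp at 0 to 10 counts, Rpph1 at 0 to 9 and Terc at 0 to 3. Whether the missing tail affects the histone counts, and how far, was not tested.

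The sequence that replaces the tail is shown here because it marks where an S-phase histone message ends, and the models of the 7 kept genes in which it was found reach beyond it. The capitals mark the stem-loop, 6 bases that pair with 6 others around a loop of 4, and the lower case the 5 bases on either side. They were read from the coding transcript of each gene with the most bases after its stop codon (GENCODE M21, GRCm38).
Hist1h1c, kept, chr13:23739512-23739527, plus strand: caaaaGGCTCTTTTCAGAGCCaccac
Hist3h2a, kept, chr11:58955172-58955187, plus strand: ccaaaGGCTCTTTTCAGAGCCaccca
Hist1h4i, kept, chr13:22040966-22040981, minus strand: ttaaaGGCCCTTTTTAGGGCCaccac
Hist1h4j, kept, chr13:21735437-21735452, plus strand: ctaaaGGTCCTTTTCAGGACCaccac
Hist2h4, kept, chr3:96262939-96262954, minus strand: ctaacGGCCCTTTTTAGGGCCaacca
Hist2h3c2, kept, chr3:96238485-96238500, minus strand: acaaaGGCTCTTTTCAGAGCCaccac
Hist1h4h, not kept, chr13:23531458-23531473, plus strand: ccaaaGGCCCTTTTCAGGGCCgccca
Hist1h2ac, not kept, chr13:23683477-23683492, minus strand: ccaaaGGCTCTTTTCAGAGCCcccac

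The search took the first 100 bases after the stop codon for a stem that starts GG and ends CC around a loop that starts TT. It found the element in 7 of 14 kept genes and 34 of 51 others with an annotated stop codon, and in 37 of 19934 coding genes of the annotation that have such a window (0.186%), of which 25 are named Hist. The 41 elements took 6 forms. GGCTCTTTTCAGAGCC was the most frequent, in 4 kept and 19 other genes, and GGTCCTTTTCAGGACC was in 1 of each. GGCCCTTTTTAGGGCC was found in the kept genes Hist1h4i and Hist2h4 alone, and the 3 other forms in genes that were not kept, of which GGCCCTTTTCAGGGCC was in 7 and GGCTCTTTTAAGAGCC in 6. The missing matches say only that the pattern was not in the window, which in many of these genes is cut short by the annotation.

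Kept and other genes differed in how far the gene model behind the counts runs past the stem-loop, which is given as a description with no test. In all 7 kept genes with the element, the span in the deposited table went on for at least 330 bases beyond it (median 840, up to 1789). Among the 34 others it ended within 100 bases in 29 (median 29.5 bases), the 5 longer ones being Hist3h2ba, Hist1h3e, Hist1h3f, Hist4h4 and Hist2h3c1. The gene length by which the authors divided, recovered from counts and FPKM (reads scaled by gene length and library total), had a median of 1511 bases (312 to 6940) in the kept genes and 469 bases (352 to 2863) in the 54 others with counts. A longer model can collect more reads, and the count rule does not correct for that. Per length, the kept genes had a median FPKM of 1.04 (0.153 to 6.44) and the others one of 0.234 (0 to 1.21), so that the ranges overlapped.

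**Figure D1:**
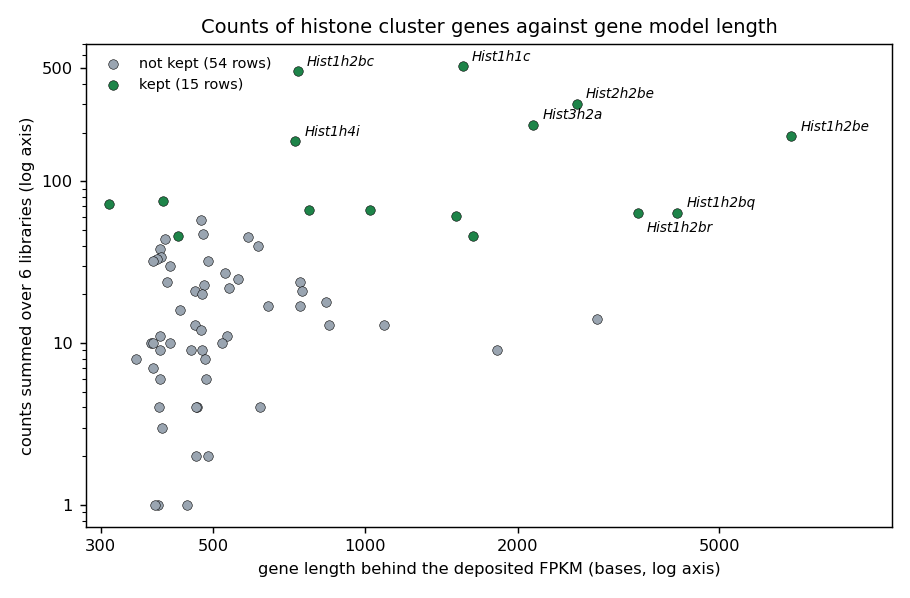
Counts of each histone cluster gene summed over 6 libraries (vertical, log axis) against the gene length behind its FPKM in bases (horizontal, log axis), for the 69 rows with counts. The 15 kept genes (green) spread from 312 to 6940 bases, while most of the 54 others (grey) lie near 469 bases.

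A signal for a poly(A) tail (AATAAA or ATTAAA in the last 50 bases of the annotated transcript) was present in 9 of 12 kept genes and 8 of 36 others with at least 50 bases after the stop codon, beside 75.3% of all such genes of the annotation. Hist1h1c, Hist3h2a, Hist1h4j, Hist2h4, Hist2h2be, Hist1h2bq and Hist1h2br carried AATAAA, and Hist1h2be and Hist1h4i carried ATTAAA. Neither was found in Hist1h2bc, Hist2h3c2 and Hist1h3g. The kept genes without a stem-loop match were of several kinds. Hist2h2be had 2192 bases after the stop codon, Hist1h2bq and Hist1h2br 823 each and Hist1h2bc 742, whereas the annotation of Hist1h3g stops 95 bases after it and those of Hist1h2af and Hist1h4k at 1 and 0 bases.

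Promoter motifs are given as shares, with no test. RefSeq promoters (GRCm38.p6, 250 bases before to 50 after the start) were matched to 62 of 70 gene names, 63 promoters in all. Hist1h2be was entered more than once, and the kept genes Hist1h2bc, Hist2h2be and Hist2h4 had no match. TATAAA on either strand was in 3 of 13 promoters of kept genes and 32 of 50 of others, beside 13.6% of all promoters. CCAAT was in 10 of 13 and 44 of 50 (37.4% of all), and the octamer ATTTGCAT in 3 of 13 and 11 of 50 (1.74% of all). The 3 motifs were searched separately, also where matches share letters, and a match is a description of the letters only.

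The order of levels among the kept genes, per length, ran from Hist1h2bc at a mean of 6.44 FPKM over 6 libraries, an H2B gene, through Hist1h1c (3.27), the gene for linker histone H1.2, Hist1h4i (2.42), Hist1h4k (2.30) and Hist1h2af (1.85) down to Hist1h2br (0.184) and Hist1h2bq (0.153). Hist1h4i and Hist1h4k, both H4 genes, did not differ beyond their spread, at 2.47 ± 0.165 and 2.50 ± 0.275 FPKM in the control group (SD, n = 3). Neither did Hist2h2be and Hist3h2a, at 1.14 ± 0.227 and 0.933 ± 0.411 FPKM there.

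Replacement variants had far higher FPKM in these libraries than the cluster genes of the same class. Most variant messages carry a poly(A) tail and most cluster messages do not, so the 2 kinds may have been captured unequally. The ratios are therefore no measure of abundance in the cells, and the part of capture was not tested. Summed over 12 H3 rows, the cluster genes had 2.92 to 6.69 FPKM in a library, whereas H3f3a and H3f3b, which both encode H3.3, had 133.9 to 155.8 FPKM. That is 20.2 to 46.7 times as much. For H1, the 6 cluster rows summed to 3.08 to 7.64 FPKM, and H1f0 and H1fx to 143.0 to 200.4, or 21.04 to 53.0 times as much. The 20 H2A rows summed to 4.99 to 13.3 FPKM, and 6 H2A variant genes to 151.6 to 199.6. H2B and H4, for which no variant gene was compared, had 9.75 to 21.5 and 10.04 to 13.5 FPKM over 20 and 13 rows.

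**Figure D2:**
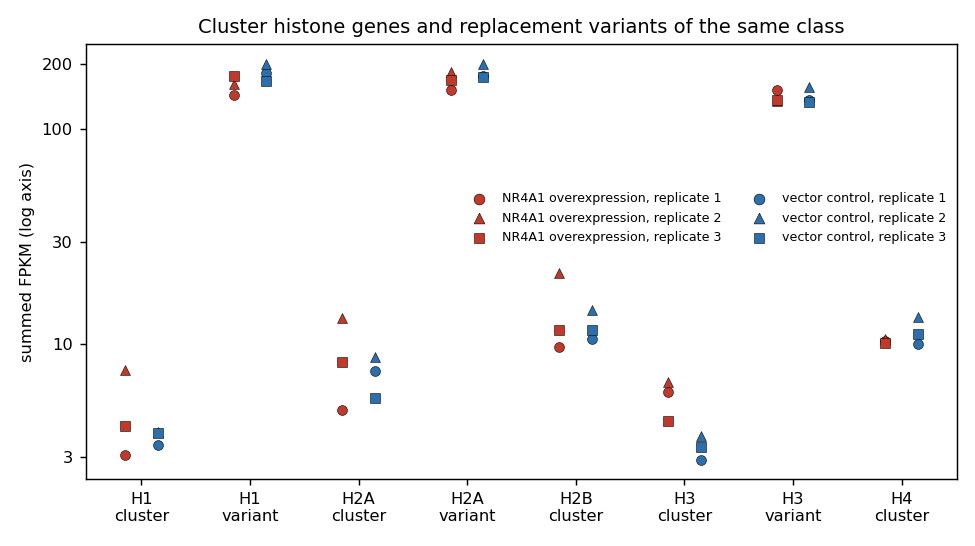
Summed FPKM (log axis) of the cluster genes of each histone class and of replacement variants of the same class in every library, red for NR4A1 overexpression and blue for the vector control. The variants lie between 133.9 and 200.4 FPKM and the cluster sums between 2.92 and 21.5 FPKM. Messages with and without a poly(A) tail may have been captured unequally.

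No histone cluster gene passed the test between the groups. With a call defined as an adjusted p under 0.05 and a fold of at least 2 in edgeR's quasi-likelihood test, 0 of 15 kept genes were called, beside 22 of all 12941 tested genes (0.170%), and DESeq2 and limma-voom also called 0. At an unadjusted p under 0.05, edgeR had 1 of 15, beside 6.46% of all tested genes. That gene was Hist1h3g, which was kept through the NR4A1 overexpression libraries alone. DESeq2 had 0 and limma-voom 1, with their shares of all tested genes not given here. Adjusted p-values of the kept genes ranged from 0.582 to 0.997, and over all alternatives from 0.124 upward. The median log2 fold change was 0.32, with 9 of 15 above 0, against a median of 0.01 and 51.9% above 0 over all tested genes. Without NR4A1 overexpression replicate 2 the median was 0.07, again with 9 of 15 above 0. The SE of a single gene's log2 fold change lay between 0.23 and 0.58, so that these counts could not resolve small differences.

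**Figure D3:**
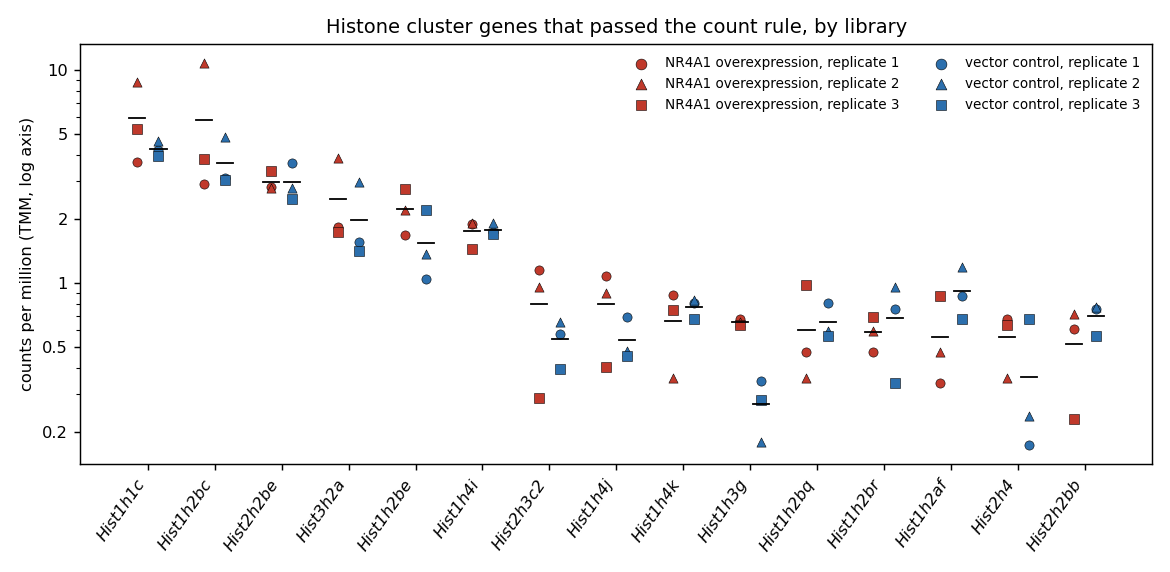
CPM (TMM-normalized, log axis) of the 15 kept genes in each library, red for NR4A1 overexpression and blue for the vector control, with symbols for replicates and black lines for group means. NR4A1 overexpression replicate 2 (red triangles) is highest in Hist1h1c, Hist1h2bc and Hist3h2a, 20% of the kept genes beside 22.7% of all tested genes. The groups separate only in Hist1h3g, which was kept through the NR4A1 overexpression libraries alone.

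Among H3 genes, Hist1h3g (chr13:23535434-23535860, plus strand) had the smallest p. It received 10, 11 and 11 counts in the NR4A1 overexpression group and 6, 3 and 5 in the control group, or 0.656 ± 0.020 against 0.270 ± 0.085 CPM (SD, n = 3). The log2 fold change was 1.25 ± 0.39 SE (edgeR, adjusted p = 0.582). It was the 1 of 15 kept genes in which every NR4A1 library lay above every control library, beside 6.69% of all tested genes. In 0 of 15 did every NR4A1 library lie below, beside 6.22%. Only the NR4A1 overexpression libraries reached 10 counts for Hist1h3g, so it was kept through them alone. Its separation follows in part from that rule and is no separate result. Of the 50-base stretches in its transcripts, 54.1% also occur in other genes, most of them in Hist1h3h, so that reads could be split or misplaced.

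Hist2h3c2, the other kept H3 gene (chr3:96238108-96239127), had 17, 16 and 5 counts in the NR4A1 overexpression group and 10, 11 and 7 in the control group. Its highest library was 3.98 times its lowest, the widest range among the kept genes, and both extremes belong to the NR4A1 overexpression group. Of its 50-base stretches, 63.5% occur in Gm20634 as well. Over all 12 H3 rows the sum was 6.04, 6.69 and 4.43 FPKM against 2.92, 3.77 and 3.36, without overlap, while in CPM replicate 3 of the NR4A1 overexpression group (2.37) lay just below vector control replicate 2 (2.39). Leaving Hist1h3g out, the FPKM sums overlapped, at 4.48, 5.17 and 2.95 against 2.11, 3.35 and 2.69.

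Of the H2A genes, Hist1h2af had the most negative log2 fold change, -0.68 ± 0.44 SE (edgeR, adjusted p = 0.859). The counts were 5, 8 and 15 in the NR4A1 overexpression group and 15, 20 and 12 in the control group, and the groups overlapped. Since 94.0% of its 50-base stretches occur in other genes, mostly Hist1h2ad, its counts are uncertain. It lies next to Hist1h3g on the same strand, and its log2 fold change has the opposite sign. Hist3h2a (chr11:58954685-58956830), the kept gene of the Hist3 locus, had 27, 65 and 30 counts against 27, 50 and 25, with a log2 fold change of 0.32 ± 0.43 SE that became -0.16 without NR4A1 overexpression replicate 2. The whole span of this gene lies within Trim17 on the same strand, which received 3 counts in all.

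The H2B class held 6 kept genes and 40.8% of all cluster histone counts. Hist1h2bc (chr13:23684199-23692488), known for a polyadenylated message, had 43, 181 and 66 counts in the NR4A1 overexpression group and 54, 81 and 54 in the control group. Replicate 2 of the NR4A1 overexpression group was 3.04 times the mean of the other 5 libraries, and those 5 overlapped between groups. The log2 fold change was 0.67 ± 0.50 SE (edgeR, adjusted p = 0.890) and -0.12 ± 0.29 SE without that library. Other genes, 220 in all, hold 30.6% of the 50-base stretches of Hist1h2bc, so that reads could be split or misplaced. Hist1h2ac, an H2A gene that starts 274 bases away on the other strand in a head-to-head arrangement, had 1, 5 and 6 counts against 5, 3 and 0, or 20 in all beside 479 for Hist1h2bc, with gene lengths of 476 and 736 bases.

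Hist2h2be (chr3:96221119-96223738), another gene with a known polyadenylated message, was even across libraries, its highest CPM being 1.46 times its lowest. Its counts were 42, 47 and 58 in the NR4A1 overexpression group and 63, 47 and 44 in the control group, with a log2 fold change of 0.01 ± 0.23 SE, and none of its 50-base stretches occurs in another gene. The head-to-head partner of this gene, Hist2h2ac, 238 bases away, had 10 counts in all beside 301. In the 14 head-to-head pairs of cluster genes less than 1000 bases apart, 5 held 1 kept gene and the other 9 none.

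Hist1h2be had 25, 37 and 48 counts against 18, 23 and 39, and its log2 fold change was 0.53 ± 0.35 SE (edgeR, adjusted p = 0.867), the groups overlapping. Its span in the table, chr13:23583742-23621124, is much longer than that of its neighbours, and 10.1% of its 50-base stretches occur in Hist1h1e. Hist1h2bq (7, 6 and 17 against 14, 10 and 10 counts) and Hist1h2br (7, 10 and 12 against 13, 16 and 6) cannot be read apart, as 97.3% and 88.7% of their stretches are shared, almost all with each other. Hist2h2bb under its longer identifier had 9, 12 and 4 counts against 13, 13 and 10, with a log2 fold change of -0.43 ± 0.46 SE and overlapping groups.

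H4 counts were the most even of the classes, with sums of 6.02, 6.14 and 5.49 CPM in the NR4A1 overexpression group and 5.21, 6.68 and 5.95 CPM in the control group over 13 rows. Hist1h4i had 28, 32 and 25 against 30, 32 and 30 counts. Its log2 fold change was -0.03 ± 0.23 SE and its highest library was 1.32 times its lowest, the narrowest range among the kept genes. Hist1h4k had 13, 6 and 13 against 14, 14 and 12 counts (log2 fold change -0.23 ± 0.40 SE). Hist1h4j had 16, 15 and 7 against 12, 8 and 8 counts (0.53 ± 0.45 SE). Hist2h4, the kept H4 gene of the Hist2 locus, had 10, 6 and 11 against 3, 4 and 12 counts (0.59 ± 0.58 SE). All 4 overlapped between groups.

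The only kept H1 gene was Hist1h1c (chr13:23738808-23740367), whose message is also known to be polyadenylated. It had 55, 148 and 92 counts in the NR4A1 overexpression group and 73, 78 and 70 in the control group, or 5.95 ± 2.61 against 4.28 ± 0.348 CPM (SD, n = 3). Replicate 2 was 2.02 times the mean of the other libraries and replicate 1 was the lowest of the 6. The log2 fold change was 0.48 ± 0.32 SE (edgeR, adjusted p = 0.867) and 0.08 ± 0.22 SE without replicate 2. The other 5 H1 rows had at most 9 counts in a library.

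**Figure D4:**
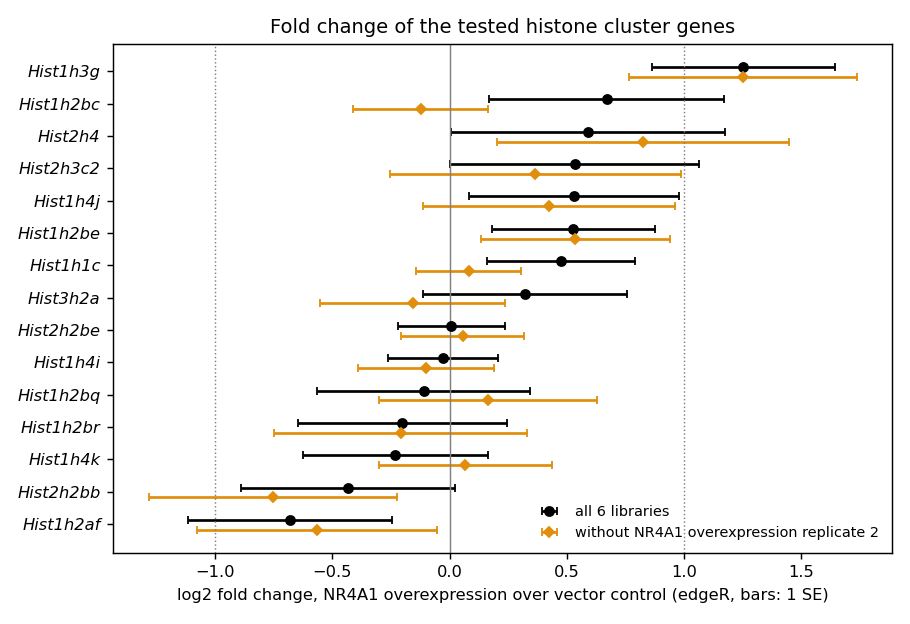
Log2 fold change of each kept gene, NR4A1 overexpression over vector control, with bars of 1 SE, for all 6 libraries (black) and without NR4A1 overexpression replicate 2 (orange). Hist1h3g stays at 1.25 in both, whereas Hist1h2bc moves from 0.67 to -0.12 and Hist3h2a from 0.32 to -0.16. Hist1h3g was kept through the NR4A1 overexpression libraries alone.

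The excess of NR4A1 overexpression replicate 2 in the kept sum lay in Hist1h1c, Hist1h2bc and Hist3h2a. That library was highest in these 3 of 15 kept genes (20%), beside 22.7% of all tested genes. The highest CPM of the 3 genes was 2.37, 3.71 and 2.73 times their lowest. Kept genes with lower counts ranged as widely relative to their level, for example 3.91 times in Hist2h4 and 3.78 times in Hist1h3g. The kept genes summed to 21.2, 35.7 and 23.9 CPM in the NR4A1 overexpression group and 21.1, 24.5 and 19.5 in the control group. Hist1h1c, Hist1h2bc and Hist3h2a accounted for 8.45, 23.5 and 10.9 against 8.91, 12.5 and 8.44 of these, and the 12 other kept genes for 12.8, 12.3 and 13.1 against 12.2, 11.995 and 11.05, where replicate 2 was 1.004 times the mean of the other libraries. The 3 genes were set apart after their values were seen, being the kept genes that were highest in NR4A1 overexpression replicate 2. The even sum of the 12 others follows in part from that choice and is no separate result. Within groups, the counts of Hist1h2bc, Hist1h1c and Hist3h2a had a chi-square per degree of freedom of 28.05, 9.36 and 8.15, where counting error alone gives about 1, and the median of the kept genes was 1.76 beside 5.19 for all tested genes, which have higher counts. The log2 ratio of the group means of the kept sum was 0.31 with all libraries and 0.06 without NR4A1 overexpression replicate 2.

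Among the rows that were not kept, 2 had at least 9 counts with all of them in NR4A1 overexpression replicate 2. Hist2h2aa1 (chr3:96245497-96246082) had 45 counts there and 0 in the other 5 libraries, and its neighbour Hist2h3c1 (chr3:96246685-96248504) had 9 and 0. These genes were chosen after their values were seen. Every 50-base stretch of both occurs in other genes, and both overlap Gm20634 on the same strand, which had 16, 18 and 16 against 26, 22 and 21 counts. Hist2h2aa2, whose stretches all occur in Hist2h2aa1, had 4, 9 and 2 against 6, 3 and 3 counts. Outside the histone clusters, 137 of 15827 rows with at least 9 counts (0.866%) also had all of them in this library. It was highest in 17 of the 54 rows with counts that were not kept (31.5%), beside 32.3% of other rows with totals in the same range. Smooth muscle, endothelial and fibroblast markers were raised in this library as given above, and their part in the histone counts was not tested. In bulk RNA, more cells of a type and more RNA per cell cannot be told apart.

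**Figure D5:**
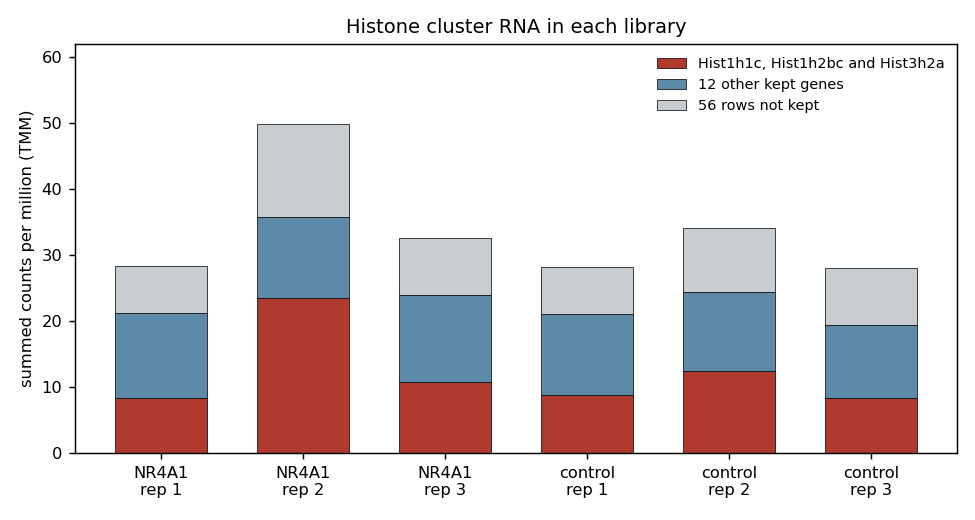
Summed CPM of the 71 histone cluster rows in each library, split into Hist1h1c, Hist1h2bc and Hist3h2a (red), the 12 other kept genes (blue) and the 56 rows not kept (grey). NR4A1 overexpression replicate 2 reaches 49.9 CPM, and its excess lies in the red and grey segments, not in the blue one. The red genes were set apart after their values were seen, as the kept genes highest in that library, so the even blue segment follows in part from that choice.

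Lists of genes that act on histones or their messages, and of S-phase genes, held no gene that was called. Counts at an unadjusted p under 0.05 in edgeR are to be read beside 6.46% of all tested genes. The matching shares for DESeq2 and limma-voom are not given here, so their counts have no background. Of 20 tested genes that transcribe, process or degrade histone messages, edgeR, DESeq2 and limma-voom each called 0, with 1, 1 and 0 at an unadjusted p under 0.05. The median log2 fold change was -0.05, beside 0.01 over all tested genes. Slbp, which binds the stem-loop, had 16.9 ± 0.821 FPKM in the NR4A1 overexpression group and 19.2 ± 0.665 in the control group (SD, n = 3), with a log2 fold change of -0.16 ± 0.07 SE (edgeR, adjusted p = 0.766). Npat, which activates histone genes at S phase entry, had 17.04 ± 3.11 against 16.4 ± 2.30 FPKM.

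For 11 tested variant histone genes the 3 tools each called 0, with 1 at an unadjusted p under 0.05 in each, and the median log2 fold change was -0.02. That gene was H2afz, which encodes H2A.Z, with 420, 411 and 388 counts in the NR4A1 overexpression group and 590, 549 and 626 in the control group. The NR4A1 libraries all lay below the control libraries, as in 6.22% of all tested genes, and the log2 fold change was -0.44 ± 0.10 SE (edgeR, adjusted p = 0.314). H3f3b had 100.4 ± 7.38 against 103.1 ± 8.80 FPKM and H1f0, the H1.0 gene, 126.0 ± 8.18 against 139.8 ± 9.91 FPKM (SD, n = 3).

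Histone chaperones, which carry histones to DNA, were not called either. All 23 were tested, with 0 calls by each tool and 1, 3 and 1 at an unadjusted p under 0.05 in edgeR, DESeq2 and limma-voom, and the median log2 fold change was -0.02. Asf1b, a chaperone of H3 and H4, had 34.4 ± 1.39 against 37.6 ± 0.322 FPKM (SD, n = 3). Of 31 S-phase genes, 0 were called by each tool, with 1, 3 and 0 at an unadjusted p under 0.05. The list shares Slbp with the message factors, where it is the same 1 gene under 0.05 in edgeR, and Mcm2 and Chaf1b with the chaperones. Of the 31, 28 had a log2 fold change below 0, beside 6228 of all 12941 tested genes. Their median was -0.11, beside 0.01 over all tested genes, with a range from -0.24 to 0.10.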

How the data were processed

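RNA-seq of MLE-12 cells gave 3 NR4A1 overexpression and 3 vector control libraries, grouped by the treatment label. The authors deposited 1 table of 34745 genes with raw read counts and FPKM, and none of its columns of per-sample values was left unmapped. The submitters' processing notes name HISAT2 2.0.4 and GRCm38.p4. The counting program and its treatment of reads that match several genes are not given in the sources used here. The deposited FPKM equal counts scaled by total count and a fixed gene length (10002 genes, deviation at most 0.000707%). Counts were fitted with edgeR 4.0.16 (TMM, filterByExpr, quasi-likelihood test, Benjamini-Hochberg adjustment over all tested genes) in R 4.3.3, with limma 3.58.1 and DESeq2 1.42.0 as alternatives. Spread in the text is SD or SE as given. Scripts were tested on simulated data. Sequences were read from GENCODE M21 and RefSeq tables with Python 3.11.15.

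Members and gene lists were chosen with earlier results of these data known. Named were the kept genes with the smallest p, the largest changes in each direction, the highest FPKM in each class, the widest ranges and the only kept members of a class at a locus, and all kept genes were given counts. Lists covered variant histones, histone message factors, chaperones, S phase, RNAs without a tail, and cell type markers. Of the marker lists, edgeR tested 4 epithelial, 5 alveolar type 2, 7 fibroblast, 2 endothelial, 1 smooth muscle, 2 immune and 0 erythroid genes and called 0 in each, as did DESeq2 and limma-voom. At an unadjusted p under 0.05, edgeR had 2, 1, 0, 0, 1, 0 and 0, beside 6.46% of all tested genes. Alternatives were other scalings, filters and tools, thresholds, FPKM, Nr4a1 left out, the replicate number as a block, and each library left out.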

Additional observations from a re-analysis of the deposited data

How the results depend on the processing

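No kept histone gene was called under any fit. In the reported fit, 1 of 15 (Hist1h3g) passed an unadjusted p under 0.05 with or without the 2-fold threshold, by which 161 and 836 of all tested genes passed. Under the alternatives this number was 0 with DESeq2 and 2 without NR4A1 overexpression replicate 1, NR4A1 overexpression replicate 3 or vector control replicate 3. The matching shares of all tested genes under these fits are not given here, so these counts have no background. The unadjusted p of Hist1h3g ranged from 0.00047 to 0.119 over the alternatives (edgeR, DESeq2 or limma). All genes called numbered 22 in the reported fit, 65 with DESeq2, 7 with limma on log2(FPKM + 1), and between 3 and 28 with 1 library left out (28 without NR4A1 overexpression replicate 2, 3 to 6 without any other). On log2(FPKM + 1), 9 kept genes were tested and 5 had a positive log2 fold change. With a library left out, 8 to 10 kept genes were positive, the median log2 fold change lay between 0.07 and 0.37, and the log2 ratio of the summed CPM between 0.06 and 0.46, the lowest of both without NR4A1 overexpression replicate 2. That ratio was 0.27 from summed FPKM and 0.29 over all 71 rows, settings chosen after seeing the data. No limma fit was run on this single sum.

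Libraries of the groups share replicate numbers, and whether same-numbered libraries were paired is not known. Their deviations correlated at -0.01, -0.05 and 0.25, and so few values cannot settle it. Adding a block for the shared number left 5 called genes and 0 of the kept genes, with a median of 0.30 and 9 of 15 positive. Not every library correlated best with its own number.

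Of 219 single-gene values under alternatives, 205 kept their sign and 14 changed it, of which 12 with a library left out. The ranges over left-out libraries that cross 0 were -0.12 to 0.99 for Hist1h2bc, -0.67 to 0.16 for Hist1h2bq, -0.53 to 0.11 for Hist1h2br, -0.10 to 0.084 for Hist1h4i, -0.48 to 0.068 for Hist1h4k, -0.11 to 0.18 for Hist2h2be and -0.16 to 0.73 for Hist3h2a. Hist2h2be was also at -0.011 without TMM factors and at -0.0031 on log2(FPKM + 1). The cause was not tested. At 8 to 86 mean counts per kept gene, counting error alone is large.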
